A study of Homo sapiens with 10 samples.

Results

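The 116 genes described here are those whose RNA was lower after 2 h of merbarone in hTERT RPE-1 cells, an immortalised human retinal pigment epithelial line. They were chosen by measured values. The mean RPKM (reads divided by gene length in kilobases and by library size) had to reach 1 over the 4 libraries of the 2 h experiment, both treated libraries had to lie below both untreated ones, and the mean difference in log2(RPKM + 1) had to be at or below -0.5. Of 20327 genes in the tables, 6620 passed the expression filter, and 125 of these (1.89%) met all 3 conditions. Genes with symbols of several families (zinc finger ZNF genes, collagens, ribosomal proteins, RGS and IFI genes, histones, mitochondrially encoded genes) and 5 single genes were then left out, which removed 9 genes, RGS4, IFIT2, MAB21L1, BMP4, IFIT1, IFIT3, MT-ND6, RPSA and RPS21. The remaining 116 are called members below. Of these, 106 had a symbol and 10 are known by an Ensembl identifier only. Since the 2 h values chose the members, they are given as a description and carry no test, and a fall or a rise at 2 h means only that a gene met the rule or its mirror image.

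Polyadenylated RNA was sequenced from cells kept for 48 h in 0.1% serum, in 2 separate experiments with 10 libraries in all. In the first, cells received merbarone at 200 µM for 30 min (3 libraries) or the vehicle DMSO for 30 min (3 libraries). In the second, cells received merbarone at 200 µM for 2 h (2 libraries) or were left untreated (2 libraries), so that compound and vehicle cannot be told apart at 2 h. The labels do not say whether the replicates came from separate cultures, so p-values measure only the spread between these libraries, which may be technical.

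Merbarone is a catalytic inhibitor of DNA topoisomerase II, an enzyme that relaxes supercoiled DNA by passing one duplex through another. Transcription itself generates supercoils ahead of and behind RNA polymerase. The level of a messenger RNA depends on how fast it is made and how fast it decays, neither of which was measured here. The RNAs of many cell-cycle regulators, immediate-early regulators and signalling feedback genes are known to be short-lived.

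Libraries of the 2 h experiment held 11956652 to 13691014 reads in genes, against 26633780 to 38225538 in the 30 min experiment. Of the markers of the pigment epithelium, OTX2 lay between 2.35 and 4.61 RPKM over the 10 libraries and PMEL between 3.68 and 5.07, whereas RPE65 stayed at or below 0.0656 and DCT was listed at 0 throughout. The mesenchymal gene VIM lay between 560.3 and 1105 RPKM. Of the 8 blood markers 4 were at 0 in every library, CD3E among them, while CD68, which is not restricted to blood cells, lay between 17.4 and 31.0 RPKM. The endothelial marker CDH5 was at 0 in every library, and the endothelial list summed to at most 0.107 RPKM. The summed level of the 17 epithelial markers was 26.6 to 33.5 RPKM in the 30 min experiment and 90.4 to 105.3 in the 2 h experiment, a sum dominated by KRT18 (14.1 to 69.4 over the 10 libraries), whereas the mesenchymal sums of the experiments overlapped (909.6 to 1430 and 983.8 to 1002).

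Most falls were modest. The mean RPKM left after 2 h ranged from 27.5% of the untreated mean to 70.3%, with a median of 63.3%, and only 10 members fell to 50% or less. In bulk RNA, fewer expressing cells and less RNA per cell cannot be told apart. The members closest to the threshold inside it were MXD4 at -0.51, FAM174C at -0.50 and PHB1 at -0.50 on the log2(RPKM + 1) scale, and the closest outside it were XKR8, AGAP2 and CBR1, which round to -0.50 but lay above it. Between 11 and 24445 reads stood behind a member's value in a library of the 2 h experiment, and 93 members had at least 100 reads in each of the 4.

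**Figure D1:**
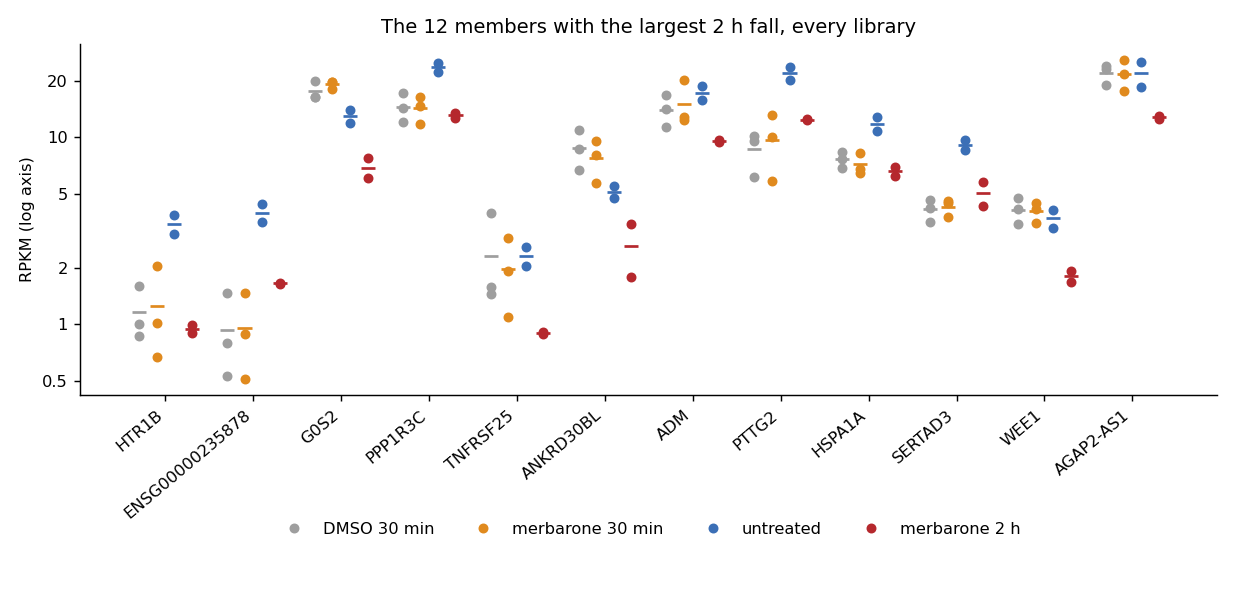
RPKM (log axis) of the 12 members with the largest fall, with 1 point per library and a short line at each group's mean, for DMSO and merbarone at 30 min (3 libraries each), untreated cells and merbarone at 2 h (2 libraries each). The merbarone 2 h points lie below the untreated points by construction, while the DMSO and merbarone 30 min points overlap for all 12. The 30 min groups overlap for 97.7% of all genes passing the filter in both experiments.

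The largest fall was that of HTR1B (ENSG00000135312, GRCh37 chr6:78170641-78173208, minus strand), a serotonin receptor that signals through inhibitory G proteins. It stood at 3.84 and 3.03 RPKM in untreated cells and at 0.994 and 0.894 after 2 h, a difference of -1.19 in log2(RPKM + 1). These values rest on 18 to 79 reads per library. In the 30 min experiment HTR1B lay at 1.61, 0.866 and 1.00 RPKM with DMSO and at 2.06, 1.02 and 0.666 with merbarone, groups that overlapped. Both 2 h treated values lay within the range of these 6 libraries and both untreated values above it.

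Other members near the top came from unrelated families. G0S2, an inhibitor of the triglyceride lipase ATGL, read 12 and 14 RPKM in untreated cells and 6.03 and 7.75 after 2 h (-0.83). PPP1R3C, which targets protein phosphatase 1 to glycogen, read 22.5 and 25.04 against 12.7 and 13.5 (-0.81). TNFRSF25, a death receptor of the tumour necrosis factor family, read 2.59 and 2.05 against 0.883 and 0.912 (-0.80). In all 3 the gap between the groups was wider than the gap between the libraries of either group, which naming the largest falls favours. SERTAD3, a transcriptional coregulator, followed at -0.75, and the unnamed gene ENSG00000235878, with 28 to 75 reads per library, stood second in the whole set at -0.89.

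The members were sorted by role after the set was known, into 7 groups and 22 genes without an assigned role. Genes of the cell cycle and mitosis made up 17 members. WEE1, the kinase that holds CDK1 inactive before mitosis, read 4.10 and 3.28 RPKM in untreated cells and 1.92 and 1.69 after 2 h (-0.74). KIF20A, a kinesin of late mitosis and cytokinesis, read 21.7 and 18.0 against 13.5 and 13.0 (-0.55). Both kinds of regulator appeared here, those that drive division and those that restrain it. CCNA2 (cyclin A2, -0.51), CKS2 (a CDK-binding subunit, -0.55), UBE2C (the ubiquitin-conjugating enzyme of the anaphase-promoting complex, -0.51) and BIRC5 (survivin, of the chromosomal passenger complex, -0.52) stood beside CDKN2C (-0.53) and CDKN2D (-0.54), inhibitors of CDK4 and CDK6. Securin, which guards sister chromatid cohesion, was listed as PTTG1 (-0.51) and as its near-identical single-exon copy PTTG2 (-0.77), whose reads cannot be assigned to one copy with certainty.

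A cell-cycle list matched by symbol held 104 genes passing the filter, of which 8 were members (7.69%, against 1.75% of all genes passing the filter). WEE1, KIF20A, CENPW and CDKN2D had its most negative values, and BIRC5, CCNA2, CDKN2C and CENPX were the others. The mean of 69 of the 104 was lower at 2 h, with a median of -0.09, against 60.3% of all genes and a median of -0.05. The same list held 4 genes that rose by the mirrored rule, by which 168 of all 6620 genes passing the filter rose. Of the 6 CDKN genes passing the filter, which encode CDK inhibitors, 2 were members, so that the family did not move together. CDKN1A differed in the other direction, from 35.0 and 37.4 RPKM to 89.0 and 122.3, and so did CDKN2B, by 0.58 in log2(RPKM + 1). CDKN2A (-0.30) and CDKN1B (-0.03) had lower means but missed the threshold.

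Of 17 cell-cycle members, 14 matched a promoter in the RefSeq table (GRCh38.p14), and 11 of these 14 (78.6%) held a CCAAT box in the 250 bases before the start, on either strand. The share was 49.4% over the 87 members matched and 37.5% over the other genes passing the filter. In the 125 matched genes that rose by the mirrored rule it was 44%. No share was taken over cell-cycle genes that were not members. The 100 bases before the start of the 4 cell-cycle members with most matches there are shown 5′ to 3′ on the gene's strand, with CCAAT or its reverse complement in capitals. CKS2 lies at chr9:89311095-89311194 (plus strand), KIF20A at chr5:138179012-138179111 (plus), CENPX at chr17:82022879-82022978 (minus) and PTTG1 at chr5:160421755-160421854 (plus), all in GRCh38.
CKS2: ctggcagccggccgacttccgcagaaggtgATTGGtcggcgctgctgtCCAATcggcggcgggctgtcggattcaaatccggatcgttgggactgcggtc
KIF20A: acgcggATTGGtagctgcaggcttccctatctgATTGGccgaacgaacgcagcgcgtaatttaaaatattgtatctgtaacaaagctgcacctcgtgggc
CENPX: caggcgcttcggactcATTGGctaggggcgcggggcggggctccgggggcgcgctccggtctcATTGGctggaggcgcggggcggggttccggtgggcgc
PTTG1: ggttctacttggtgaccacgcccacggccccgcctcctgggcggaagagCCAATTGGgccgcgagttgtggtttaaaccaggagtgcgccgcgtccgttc
Each of the 4 windows held 2 matches, which in PTTG1 run into one another. A match describes the letters only.

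Chaperones, redox proteins and metal-binding proteins made up 9 members, with HSPA8 and MT2A among the 3 most abundant of the set. HSPA8, the constitutive cytosolic HSP70, read 222.4 and 227.1 RPKM in untreated cells and 152.5 and 150.6 after 2 h (-0.57). MT2A, a metallothionein that binds zinc and copper, read 451.0 and 546.0 against 315.2 and 344.7 (-0.59). HSPA1A, a stress-inducible HSP70, read 10.8 and 12.8 against 6.21 and 6.93 (-0.76). HSPA1A has a near-identical copy, HSPA1B, which missed the threshold at -0.49, and reads of the pair may have been split between them. The family did not move together, since HSPA5, the HSP70 of the endoplasmic reticulum, went from 72.1 and 78.2 RPKM to 81.1 and 86.4, and 3 of 9 HSPA genes passing the filter were members. Among the metallothioneins MT1M was a member (-0.60) and MT1E lay at -0.44, whereas MT1X read 3.17 and 3.44 in untreated cells and 5.19 and 4.80 after 2 h. The antioxidant enzyme PRDX1 (-0.59), its partner in thiol chemistry TXN (-0.53) and the prolyl isomerase PPIA (-0.52) completed the better-known members of this group.

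A TATA box (TATAAA, on either strand) was found in the 250 bases before the start of 12 of the 87 matched members (13.8%) and of 4.69% of the other genes passing the filter. On the gene's own strand and beginning 25 to 40 bases before the start it was found in 7 members (8.05%) and in 1.67% of the others. In the 125 matched genes that rose by the mirrored rule the shares were 12% and 10.4%. The 100 bases before the start are shown, TATAAA in capitals, for the member with the largest fall that held it there (ADM, chr11:10304973-10305072, plus strand) and for 3 members of the chaperone, redox and metal group (HSPA1A, chr6:31815443-31815542, plus; MT2A, chr16:56608484-56608583, plus; TXN, chr9:110256508-110256607, minus), in GRCh38. In TXN the capitals also take in the reverse complement, which overlaps it.
ADM: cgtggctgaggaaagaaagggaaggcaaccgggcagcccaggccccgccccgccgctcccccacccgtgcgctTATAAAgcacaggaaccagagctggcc
HSPA1A: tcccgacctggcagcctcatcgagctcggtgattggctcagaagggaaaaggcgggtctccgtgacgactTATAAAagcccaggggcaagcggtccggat
MT2A: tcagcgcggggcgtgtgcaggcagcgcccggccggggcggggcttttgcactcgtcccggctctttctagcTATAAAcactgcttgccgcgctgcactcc
TXN: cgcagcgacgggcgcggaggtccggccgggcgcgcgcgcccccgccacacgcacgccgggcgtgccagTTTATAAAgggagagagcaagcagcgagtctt
The motif began 27 bases before the start in ADM, 30 in HSPA1A, 29 in MT2A and 30 in TXN.

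The other motifs searched lay on either side of the background. The GC box GGGCGG was held by 77.0% of matched members and 69.5% of other genes, the E-box CACGTG by 12.6% and 9.79%, and the broader CACGNG, which takes in the E-box, by 43.7% and 38.9%. The AP-1 letters TGANTCA were held by 5.75% and 3.81%, the SMAD letters GGCGCC by 23% and 26.2%, and the TGACG core of the cAMP response element by 23% and 32.7%. All were searched on both strands, and the median GC content of the windows was 65.2% in members and in the others.

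Signalling molecules, receptors and secreted factors made up 22 members, HTR1B, PPP1R3C and TNFRSF25 among them. ADM, a vasodilator peptide hormone (ENSG00000148926, GRCh37 chr11:10326620-10328944), read 15.8 and 18.9 RPKM in untreated cells and 9.70 and 9.45 after 2 h (-0.79). DUSP6, the phosphatase that inactivates ERK and is itself induced by ERK signalling, read 6.66 and 6.45 against 4.11 and 3.27 (-0.69). ISG15, an interferon-induced ubiquitin-like modifier, read 6.17 and 8.37 against 3.92 and 4.25 (-0.69). The list of protein phosphatases and their subunits gave 4 members among 60 genes passing the filter (6.67%, against 1.75% of all genes). They were PPP1R3C, DUSP6, PPP1R18 (-0.53) and DUSP23 (-0.52). In that list 3 genes rose by the mirrored rule. The mean was lower at 2 h for 34 of the 60, with a median of -0.04, against 60.3% of all genes and a median of -0.05. PDE3A, a cyclic nucleotide phosphodiesterase (-0.54), PTX3, a secreted pentraxin of innate immunity (-0.54), and CALM3, one of the calmodulin genes (-0.59), also belonged to this group. A list of MAP and other kinases matched by symbol held 79 genes passing the filter and no member, against 1.75% of all genes. That list did not take in the kinase WEE1, which was a member. The list of immediate-early genes held 39, of which 1 (DUSP6) was a member and 26 rose by the mirrored rule. Of all 6620 genes passing the filter, 168 rose by that rule.

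Regulators of transcription, chromatin and nuclear transport made up 19 members. SIX4, a homeobox regulator of development, read 4.93 and 4.47 RPKM in untreated cells and 3.15 and 2.44 after 2 h (-0.59). SIX5, a homeobox gene on chromosome 19, read 4.85 and 5.93 against 3.62 and 2.64 (-0.63). SIX3 read 19.4 and 21.4 against 14.5 and 15.0 and missed the threshold at -0.44. Zinc finger regulators other than ZNF genes gave 4 of 91, MAZ (-0.57), ZBTB7B (-0.54), OSR1 (-0.54) and ZBTB12 (-0.52), against 1.75% of all genes. In that list 5 genes rose by the mirrored rule. The mean was lower at 2 h for 37 of the 91, with a median of 0.05, against 60.3% of all genes and a median of -0.05. The list as a whole therefore did not fall with these 4. HMGA2, an architectural protein that bends AT-rich DNA, went from 1.79 and 1.41 RPKM to 0.703 and 0.644 (-0.63). KPNA2, an importin of the nuclear import machinery (-0.64), LMNB1, a lamin of the nuclear envelope (-0.52), and the histone variant gene H2AZ1 (-0.51) were further members. No member was in the splicing and RNA-processing list (139 passing the filter), the DNA repair list (59) or the p53 target list (23). The share over all genes was 1.75%. By the mirrored rule 8 of the 23 p53 targets rose, against 168 of all 6620 genes passing the filter.

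Nuclear genes for mitochondrial proteins made up 7 members. The list for respiration and mitochondrial translation gave 5 of 177 (2.82%), against 1.75% of all genes passing the filter. ATP5MC1 and ATP5MC3, which encode the same c subunit of ATP synthase, lay at -0.58 and -0.52, the assembly factor COA3 at -0.58, the import subunit TOMM6 at -0.51 and the oxidase subunit COX7B at -0.51. In the list as a whole the mean was lower at 2 h for 149 of 177 genes, with a median of -0.18. Over all genes passing the filter it was lower for 60.3%, with a median of -0.05. Cytoskeletal, membrane and trafficking proteins made up 12 members. TMSB10, which binds actin monomers, was the most abundant member, at 1545 and 1943 RPKM in untreated cells and 1101 and 1198 after 2 h (-0.59). TUBA1A, an alpha-tubulin, read 96.3 and 97.4 against 66.1 and 68.3 (-0.52), and its values are uncertain because tubulin genes are near-identical and its locus overlaps TUBA1C. TM4SF1 (-0.62) and the heparan sulfate proteoglycan SDC1 (-0.51) were surface proteins in this group. Metabolism, RNA and ribosome biogenesis made up 8 members, among them RRS1, a ribosome assembly factor (-0.70), OAZ2, an inhibitor of ornithine decarboxylase (-0.57), and TRMT112, an activator of several methyltransferases (-0.51). TRMT112P6 (-0.54) carries the name of a pseudogene of TRMT112, so that reads may have been shared between them.

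The members were mostly short genes. The length behind each RPKM value could be read from the values themselves, and for most genes it was the span of the whole gene, introns included. Its median was 5014 bp in the members (quartiles 2366 and 10385), 17233 bp over all 6620 genes passing the filter and 7062 bp in the 168 genes that rose by the mirrored rule. Of the members, 84 (72.4%) were shorter than 10 kb, against 31.6% of all genes and 59.5% of the rising genes. The summed exon length was shorter too, 2711 against 4649 bp in the median, and the canonical transcript had 4 exons against 7, with 4 in the rising genes too. Genes of a single exon were 10 of 110 annotated members (9.09%), against 3.38% of all and 19.6% of the rising genes.

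**Figure D2:**
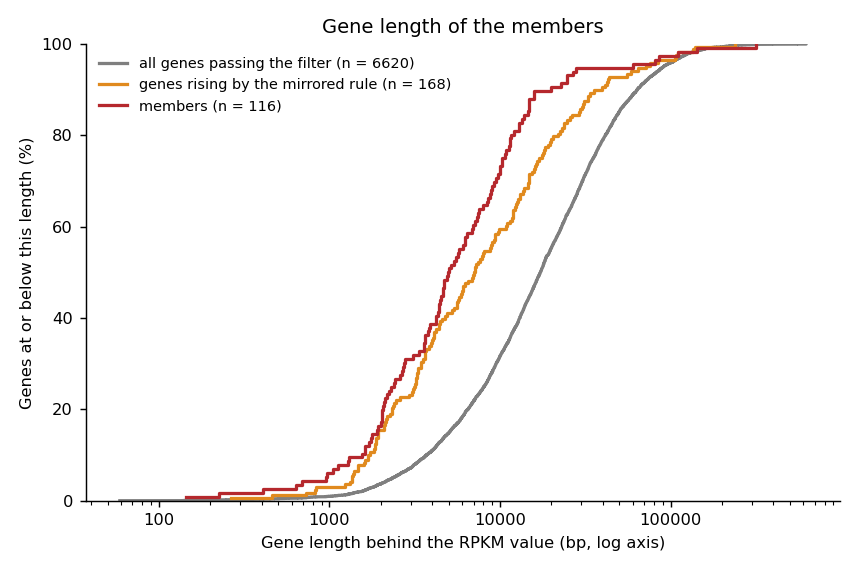
Cumulative share of genes (%) against the gene length behind the RPKM value (bp, log axis) for the 116 members, the 168 rising genes and all 6620 genes passing the filter. Members lie to the left of both other curves, with medians of 5014, 7062 and 17233 bp.

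The share of genes that were members fell with length, from 7.72% of 246 genes below 2 kb and 5.28% of those of 2 to 5 kb to 2.34% at 5 to 10 kb, 1.04% at 10 to 30 kb and 0.171% at 30 to 100 kb. Above 100 kb it was 1.10%, which stands for 3 genes, ANKRD30BL (110424 bp), HMGA2 (142223 bp) and PDE3A (315266 bp). The share of rising genes followed the same course and was higher in each class, from 10.6% below 2 kb to 1.03% at 30 to 100 kb and 2.21% above. ANKRD30BL, a gene of the ankyrin repeat family, read 4.74 and 5.48 RPKM in untreated cells and 3.45 and 1.79 after 2 h, and PDE3A read 2.32 and 2.32 against 1.85 and 0.833, so that in both the second treated library was much the lower. The shortest members were ENSG00000267889 (144 bp), ENSG00000267950 (225 bp) and TRMT112P6 (408 bp), where 11 to 24, 24 to 40 and 208 to 331 reads stood behind a value. Short genes were also more abundant per kilobase, with a median of 12.4 RPKM below 2 kb and 1.65 above 100 kb over all genes, and the added 1 in log2(RPKM + 1) makes differences of genes with low RPKM smaller.

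Length also separated libraries of one group. The median of untreated replicate 2 minus untreated replicate 1 was 0.17 for all genes below 2 kb and 0.15 for those of 2 to 5 kb, and it was -0.04 above 100 kb. Merbarone minus untreated was -0.09 below 2 kb between the first replicates and -0.22 between the second. Between the 2 treated libraries the median ran from 0.06 to -0.02 across the same classes. Of the members, 78 (67.2%) read higher in untreated replicate 2 than in replicate 1, against 55.4% of all genes. Without untreated replicate 1 the rule gave 229 genes, 94 of them members, and without untreated replicate 2 it gave 101, of which 69 were members. The median length was 4301 bp in the first case and 5802 bp in the second, shorter than that of all genes in both. The part of this library difference in the set was not tested.

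**Figure D3:**
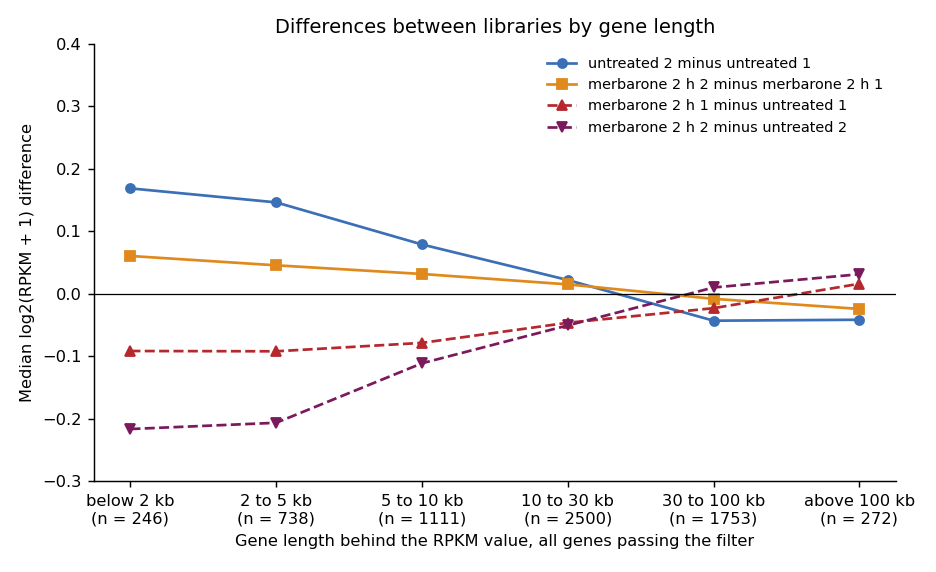
Median difference in log2(RPKM + 1) between single libraries of the 2 h experiment for all genes passing the filter, by gene length class, with the number of genes under each class. Untreated 2 minus untreated 1 runs from 0.17 in the shortest class to -0.04 in the longest, and merbarone minus untreated from -0.09 and -0.22 to 0.02 and 0.03.

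When reads were divided by summed exon length in place of the deposited length, 224 genes met the rule, 109 of them members, with a median length of 9505 bp against 33002 bp over all genes passing the filter on that scale. With an added 0.1 in place of 1 there were 234 genes, which included all 116 members, and their median length was 7139 bp.

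Some members were neighbours in the genome, described here without a test. Among 110 with a GRCh37 position, 23 (20.9%) had another member within 100000 bp, against 4.84% of the other genes, and 8 of the 23 overlapped the other member. MT2A with MT1M (23162 bp apart), S100A3 with S100A16 (57628 bp), LAMTOR2 with MEX3A (13507 bp) and ISG15 with KLHL17 (35419 bp) were such pairs.

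Of the members, 38 overlapped another gene, and for 7 of them an overlapping gene held reads within 10% of the member's own. TMSB10 and TRABD2A, on opposite strands of chromosome 2, had 21568 and 21716 reads in the first untreated library, 24333 and 24445 in the second, 15789 and 15885 in the first treated one and 16361 and 16481 in the second. The 2 genes therefore carry nearly one set of reads, and the fall of TRABD2A cannot be told apart from that of TMSB10. ARL6IP1 and the readthrough gene ENSG00000260342 likewise held 9896 and 9994 reads in the first untreated library. The antisense RNA AGAP2-AS1, among the 12 largest falls (18.7 and 25.3 RPKM against 13.1 and 12.5), held 519, 632, 373 and 340 reads where AGAP2 on the other strand held 529, 651, 386 and 363. For 20 members an overlapping gene held at least as many reads as the member itself. FAM166A, which overlaps TUBB4B (-0.41), and GNB3, which overlaps the mitotic gene CDCA3 (-0.48), are members of that kind whose own values are uncertain. PTTG2, MAB21L2, PTX3 and EVI2A lie within or across longer genes that held more reads than they did.

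The 30 min libraries took no part in choosing the members, and their differences there were small beside those at 2 h. Of the 116, 112 passed a mean of 1 RPKM over the 6 libraries and 4 did not. None was called by limma at an adjusted p of 0.05, lower or higher, where the background was 0% of 6500 genes lower and 1 gene (0.0154%) higher. At an unadjusted p under 0.05 there were 3 members (2.68%), HRCT1, S100A3 and DUSP6, against 24 genes (0.369%). The median difference of the members was -0.02 beside -0.01 over all genes tested, 68 of 112 lay below 0 (60.7% against 57.7%), and the median size of the difference in either direction was 0.04 beside 0.03. The 95% interval of the 30 min difference lay above -0.5, the value that chose the members, for 85 of the 112 and reached it for 27. With the replicate number as a block in the limma fit, it lay above -0.5 for 111 and reached it for 1, C4orf48.

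**Figure D4:**
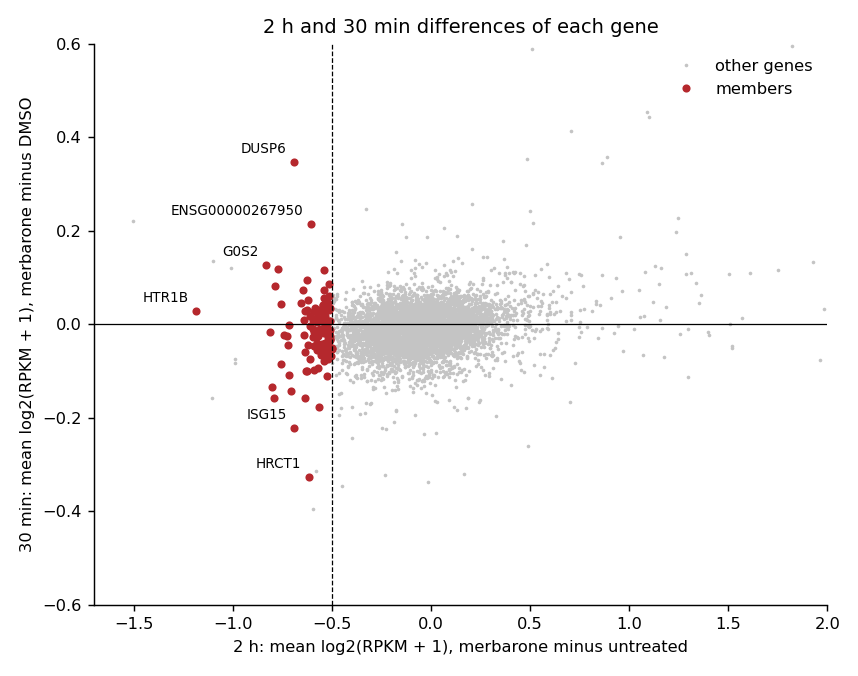
Difference in mean log2(RPKM + 1) at 30 min (merbarone minus DMSO) against that at 2 h (merbarone minus untreated) for 112 members and 6043 other genes measured at both times, with 12 other genes outside the axes. The dashed line marks the -0.5 that chose the members, which spread around 0 at 30 min from -0.33 (HRCT1) to 0.35 (DUSP6).

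DUSP6 was lower than its control at 2 h and higher than its control at 30 min. At 30 min it read 7.71, 7.73 and 7.96 RPKM with DMSO and 10.9, 10.4 and 9.40 with merbarone, so that every treated library lay above every control. The difference was 0.35 ± 0.06 (SE, limma, n = 3 and 3, adjusted p = 1.00), the largest rise among the members. The short gene ENSG00000267950 likewise read 11.3, 11.6 and 11.0 against 11.6, 13.3 and 15.2, a difference of 0.21. These were the 2 members (1.79%) whose treated libraries all lay above the DMSO ones, against 0.877% of all genes tested.

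HRCT1, a small gene of a single exon on chromosome 9, had the lowest 30 min value. It read 1.46, 1.44 and 1.29 RPKM with DMSO and 1.00, 0.899 and 0.841 with merbarone, on 28 to 47 reads per library, without overlap. The difference was -0.33 ± 0.05 (SE, limma, adjusted p = 0.661). S100A3, a calcium-binding protein gene, read 1.32, 1.53 and 1.28 against 1.18, 1.10 and 1.03 (-0.18). It overlaps S100A4, so that reads may have been shared between them. OAZ2 at -0.09 was the third of 3 members (2.68%) whose treated libraries all lay below the DMSO ones, where the share was 1.4% over all genes. When the replicate number entered the limma fit as a block, HRCT1 was called lower (limma, adjusted p = 0.0188), the only gene of 6500 called lower (0.0154%). With voom on the recovered reads and the same block, no member was called. In the blocked limma fit 10 members (8.93%) had an unadjusted p under 0.05 against 3.20% of genes.

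In the cell-cycle members the 30 min libraries differed by replicate number. KIF20A read 7.99, 19 and 20.5 RPKM with DMSO and 8.66, 20.9 and 18.96 with merbarone. Both libraries numbered 1 lay below the other 4 for 16 of the 17 cell-cycle members, for 57 of 112 members (50.9%) and for 33.5% of all 6500 genes. For the mitochondrial members this held for 0 of 7. Both libraries numbered 1 lay above the rest for 4 of these 7, against 15.2% of members and 22.5% of all 6500 genes. The median 30 min difference was 0.01 in the cell-cycle members and 0.00 in the mitochondrial ones, and it lay between -0.05 and 0.01 in every role group. Across the experiments, untreated cells lay above all 3 DMSO libraries for 68 members (58.6%), against 40.1% of genes. Both 2 h merbarone libraries lay below all 3 DMSO libraries for 57 members (49.1%), against 28.3%. The rule asked for high untreated and low treated values, so both shares are raised by the choice of members and nothing is read from them.

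Among the genes with large 2 h falls, most had 30 min groups that overlapped. So did 95.5% of the members and 97.7% of all genes passing the filter in both experiments. G0S2 read 16.5, 20.0 and 16.5 RPKM with DMSO and 18.2, 19.9 and 19.8 with merbarone, all above both untreated values of the 2 h experiment. WEE1 read 3.43, 4.75 and 4.16 against 3.49, 4.45 and 4.13. HSPA1A read 8.36, 7.70 and 6.87 against 8.29, 6.75 and 6.46, and ADM 11.3, 14.1 and 16.8 against 12.8, 12.4 and 20.2. In all 4 the groups overlapped, and limma gave each an adjusted p of 1.00. ISG15 read 8.19, 7.26 and 6.76 against 6.54, 5.23 and 6.92, a difference of -0.22 with an adjusted p of 1.00 in limma. No gene of the cell-cycle list (105 tested at 30 min) or the mitochondrial list (168) was called by limma at 30 min, with or without the block. Of the 36 immediate-early genes tested, 1 was called higher, and 7 with the block, none of them a member. The 7 were all the genes called higher with the block, and other lists held some of them again. The mRNA decay list held 2. The lists of protein phosphatases, growth factor feedback genes, zinc fingers other than ZNF genes, and KLF, SP and EGR factors held 1 each.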

How the data were processed

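Each library came as its own table of RPKM values by Ensembl identifier, deposited by the authors on a linear scale, per the file headers. The submitters' processing notes name Bowtie 1.2.0, deepTools 2.4.1 and the hg19 (GRCh37) build; the read counter's strand setting is not given in the sources used here. Read numbers and the length behind each value were recovered from the RPKM steps, which gave whole reads (within 0.01 of a read) for 100% of 17680 genes with a value above 0. No column was left unmapped (0). Gene positions came from GENCODE on GRCh37 and promoter sequences from RefSeq on GRCh38.p14.

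The 30 min groups were compared with limma 3.58.1 in R 4.3.3 (trend, two-sided, Benjamini-Hochberg adjustment over all genes tested, threshold 0.05) on log2(RPKM + 1) for genes whose 6-library mean reached 1 RPKM. The method was tested on simulated data in which the replicate number had no effect, unlike the libraries here. Libraries of the same number deviated together (correlations 0.925, 0.646 and 0.605; mean -0.34 between different numbers), so a fit with the number as a block is given where it changes a call; the labels do not say what the number marks. Alternatives were another pseudocount (0.1), other RPKM minima, median and quantile scaling, and each library left out; voom, exon lengths and the alternatives for length and overlap were added after seeing the data.

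The members and lists were chosen with earlier results of these data known. The rule for named genes took the 12 largest 2 h falls, up to 4 members of each list holding at least 3, the 4 lowest and 4 highest 30 min values and any member called there, 3 on each side of the threshold, and the 3 shortest, longest and most abundant. Other members named, the roles and the promoters shown were picked after their values were seen. Some members and values are not reported here.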

Additional observations from a re-analysis of the deposited data

Results flagged for a closer look

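DUSP6 had a 30 min difference of 0.35 in log2(RPKM + 1), with every merbarone library above every DMSO library, whereas at 2 h both merbarone libraries lay below both untreated ones. The unnamed gene ENSG00000267950 showed the same arrangement, with a 30 min difference of 0.21. The difference between the 2 experiments was not tested for either gene, the 2 h values chose the genes, and the controls were DMSO at 30 min and untreated cells at 2 h.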

How the results depend on the processing

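Membership depended on the settings: 234 genes met the rule with a pseudocount of 0.1, 187 after median scaling, 67 after quantile normalization, 75 with a mean RPKM of at least 5, 224 with exon lengths, and 101 to 229 when a library was left out, the highest without untreated replicate 1. The median length of the set was 4301 to 7139 bp under alternatives that kept the deposited lengths, the lowest without untreated replicate 1. It was 9505 bp with exon lengths, where that of all genes was 33002 bp. At 30 min no member was called by limma under any alternative run except the replicate block, where 1 (HRCT1) was; the cause was not tested. Leaving out a 30 min library moved the members' median to between -0.081 and 0.032, the lowest without DMSO replicate 1. The members with treated libraries all below DMSO numbered 1 with a mean RPKM of at least 5. They numbered 4 to 10 with a library left out, most without merbarone replicate 1, where fewer libraries must separate. The shares over all genes under these settings are not given here, so nothing about the members is read from these counts. Of 656 refits of 45 named members, 655 kept their side of the threshold, and the uncalled sign changed in 76. Reads per short member (11 at the lowest) limit the 2 h values.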
